A study of Mus musculus with 21 samples.

Results

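The genes described here encode 8 components of gp130 cytokine signalling in mouse tail keratinocytes: Cntfr, Il6ra, Lifr, Il6st and Osmr (receptor subunits), Clcf1 (a ligand), Stat3 (the transcription factor) and Socs3 (its feedback inhibitor). They were taken by gene name from the deposited count table, where all 8 of 8 were found among 23713 genes, and all 8 passed the filter on low counts in each of the 3 models. Cntfr was selected on its measured difference between tumour and control libraries in every model, so its tumour values are given as a description with no test. The other 7 genes complete the receptor, ligand and response around it.

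Bulk mRNA sequencing was done on keratinocytes from 3 mouse models of basal cell carcinoma (BCC), each with 3 control (Con) and 4 tumour libraries, 21 in all. SmoM2 mice carry an activated form of Smoothened, the transducer of Hedgehog signals, and were taken 29 days after tumour induction (batch A). Gnas-eKO mice lack Gnas, the gene of the stimulatory G protein alpha subunit, in the epidermis, and were taken at 42 days (batch B). PKI mice express a peptide inhibitor of protein kinase A and were taken at 57 days (batch C). The labels give the model names, days and batches, and what the names stand for is general knowledge of these models. The Con libraries of each model came from tumour-free epidermis of that model's control mice at the same day and in the same batch. The alleles the controls carry, the promoter that drives induction, and the sex and age of the animals are not given in the sources used here. Model, day and batch coincide and cannot be told apart, and in the file headers the SmoM2 BCC animals carry another name prefix than the SmoM2 Con animals, while both groups share 1 prefix within Gnas-eKO and within PKI. The prefix of the SmoM2 Con animals is that of the Gnas-eKO animals.

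Cytokines of this family act through Il6st, also called gp130, a signal-transducing chain shared by their receptors. Il6ra, Il11ra1 and Cntfr are ligand-binding alpha subunits without signalling domains of their own, whereas Lifr and Osmr pair with gp130 and signal with it. Cntfr binds ciliary neurotrophic factor and Clcf1, and then recruits Lifr and gp130. The activated receptors use Jak kinases to phosphorylate Stat3, and Stat3 induces Socs3, which binds gp130 and ends the signal. In skin, Stat3 is known for its roles in wound closure, hair cycling and tumour formation.

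Library totals ran from 16645900 to 22251100 estimated counts, so that 3 counts corresponded to at most 0.189 CPM (counts per library total, with each total multiplied by its TMM scaling factor). All 5 keratinocyte markers were present in every library, and Krt5, a keratin of basal keratinocytes, lay between 7634 and 17853 CPM. Of the 5, 3 were called lower and 1 higher in SmoM2 tumours, 1 lower and 1 higher in PKI and 0 in Gnas-eKO. Over all genes tested, 13.5% were called lower and 16.2% higher in SmoM2, 15.8% and 18.7% in PKI, and 1.63% either way in Gnas-eKO. Krt14, the partner keratin of Krt5, was 10755 to 14740 CPM in SmoM2 Con and 5368 to 6069 CPM in SmoM2 BCC. Gnas, the targeted gene, was at 178, 174 and 172 CPM in the Gnas-eKO Con libraries and at 115, 89.5, 51.1 and 65.6 CPM in the BCC libraries. These groups did not overlap, although the difference (log2 fold change -1.11, SE 0.25) had an edgeR adjusted p of 0.0647 and was not called. The Gnas-eKO BCC libraries were less alike than those of the other groups: their correlations with each other ran from 0.942 to 0.977, against at least 0.971 within every other group. Libraries 2 and 3, the least alike pair, had mean correlations with the rest of 0.955 and 0.953, against 0.965 and 0.967 for libraries 1 and 4. Over all genes 267 were called in Gnas-eKO, 1910 without BCC 2, 291 without BCC 3 and 0 to 59 without any other single library of the model. The Gnas-eKO results for the members are given with and without library 2, a choice made after these values were seen. Without library 3, none of the 7 members other than Cntfr was called, with differences of 1.29 for Lifr, -1.07 for Il6ra, 1.38 for Socs3, 0.59 for Clcf1, 0.51 for Osmr, 0.31 for Stat3 and 0.12 for Il6st. In bulk samples, more cells of a type and more RNA per cell cannot be told apart. The labels do not state that replicates are separate animals. The file headers give each library a code of its own without saying what it names. The p-values measure the spread between these libraries.

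Upstream sequence is shown for 4 members: Cntfr because it was the gene chosen for its rise, and Socs3, Lifr and Il6st because they alone held a match to a motif searched. Windows of 250 bases before each RefSeq start (GRCm38.p6) were available for 7 of the 8 members, 13 windows in all. They were searched on both strands for the STAT element TTCNNNGAA, its narrower form TTCCNGGAA (which lies within the first pattern), the GLI element GACCACCCA and the cyclic AMP response element TGACGTCA. The window before the outermost RefSeq start of Cntfr (chr4:41696038-41696287, minus strand, no annotated exon bases) held none of these letters and is printed in lower case throughout. It lies inside the annotated span of the gene, which reaches to 41697089. The Socs3 stretch (chr11:117969502-117969530, minus strand) begins its STAT match 154 bases before the start. The Lifr stretch (chr15:7140461-7140489, plus strand) and the Il6st stretch (chr13:112463846-112463874, plus strand) hold a match to the GLI letters with 1 mismatch, 71 and 214 bases before their starts. Capitals mark the matches:
Cntfr: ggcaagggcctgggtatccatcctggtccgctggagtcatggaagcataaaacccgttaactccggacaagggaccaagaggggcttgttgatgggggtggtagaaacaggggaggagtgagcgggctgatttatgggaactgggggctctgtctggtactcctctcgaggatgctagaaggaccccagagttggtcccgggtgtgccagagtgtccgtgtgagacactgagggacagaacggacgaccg
Socs3: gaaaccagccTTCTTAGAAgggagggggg
Lifr: agcccatttgTGGGTGGTGccacccctgg
Il6st: tttccgttccGGCCACCCAcccaagtgcg
Among 32851 windows of the same length, TTCNNNGAA was present in 7.02%, TTCCNGGAA in 0.91%, GACCACCCA in 0.23%, GACCACCCA with up to 1 mismatch in 5.79%, and TGACGTCA in 1.55%. A match of letters is a description of the sequence, not a binding site.

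Cntfr, the alpha subunit of the ciliary neurotrophic factor receptor, was low in tumour-free epidermis and abundant in all 3 tumour models. Its level was 1.84, 2.47 and 5.90 CPM in the SmoM2 Con libraries and 182, 169, 152 and 151 CPM in the SmoM2 BCC libraries. In Gnas-eKO it was 2.99, 2.12 and 3.17 CPM in Con and 176, 25.7, 80.0 and 174 CPM in BCC. In PKI it was 4.76, 2.84 and 3.48 CPM in Con and 214, 191, 119 and 159.5 CPM in BCC. No BCC library overlapped a Con library, and the BCC libraries of the 3 models overlapped one another, as did their Con libraries. The widest spread was in Gnas-eKO BCC, where library 2 at 25.7 CPM was the lowest of all 12 tumour libraries and still 8.12 times the highest Con library of its model. Over all 9 Con libraries the level ran from 1.84 to 5.90 CPM with a median of 2.99, and over the 12 BCC libraries from 25.7 to 214 CPM with a median of 164.

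As a fitted log2 fold change, the Cntfr difference was 5.62 (SE 0.37) for SmoM2, 5.37 (SE 0.72) for Gnas-eKO and 5.53 (SE 0.28) for PKI, or 49.1-fold, 41.4-fold and 46.1-fold. The Gnas-eKO value was 5.71 without BCC 2 and 5.51 without BCC 3. These values are those for which the gene was chosen, and the Con levels of a few CPM make the exact fold depend on small counts: leaving out 1 SmoM2 Con library at a time moved the SmoM2 value between 5.29 and 6.28.

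**Figure D1:**
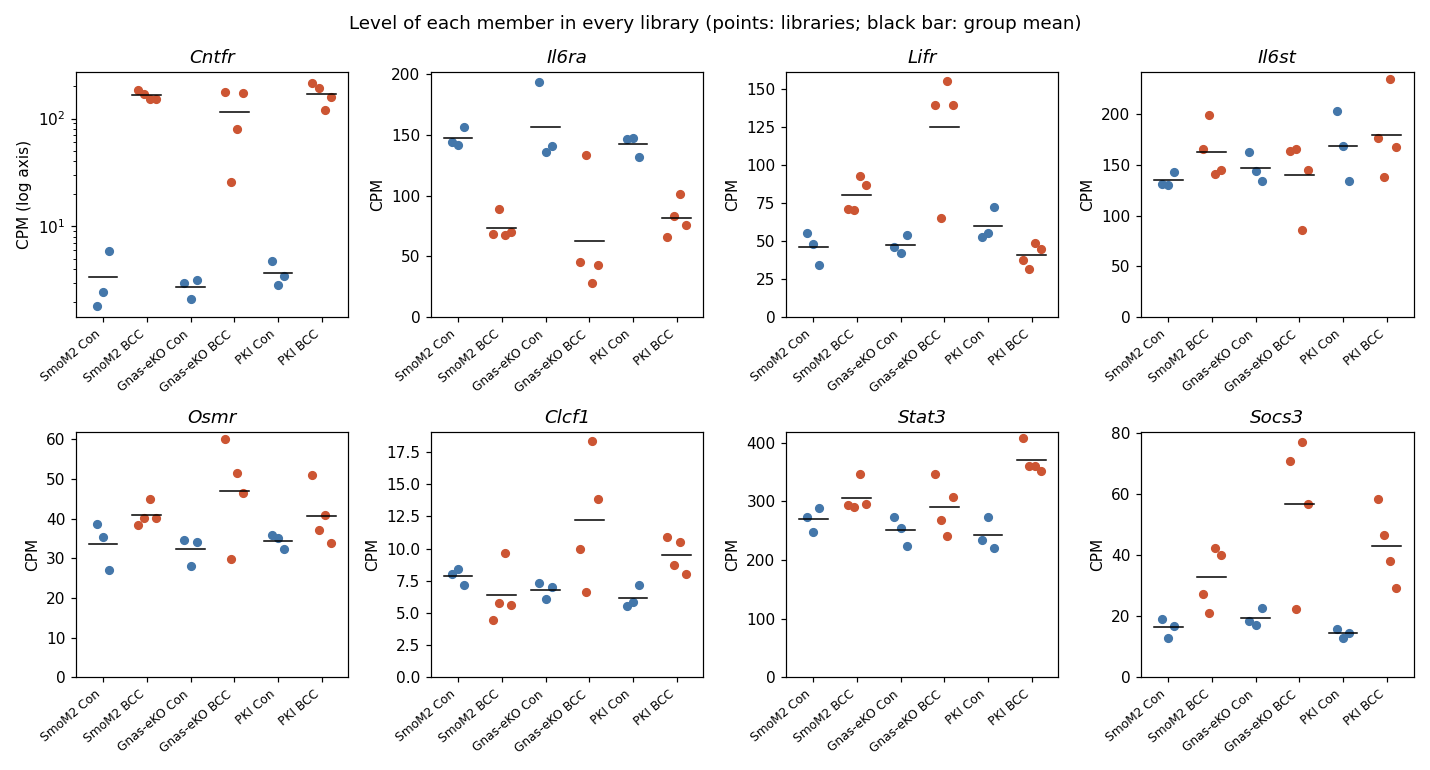
Level in CPM (y axis; log axis for Cntfr, linear from 0 for the other 7 genes) of each gene in the 21 libraries, with Con in blue, BCC in red and the group mean as a black bar. The 12 BCC libraries lie at 25.7 CPM or above for Cntfr and the 9 Con libraries at 5.90 CPM or below, whereas Il6ra is lower in SmoM2 and PKI BCC and Lifr is higher in SmoM2 BCC and lower in PKI BCC.

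Among the 7 members other than Cntfr, 3 were called in SmoM2 (Lifr and Socs3 higher, Il6ra lower), 0 in Gnas-eKO and 5 in PKI (Clcf1, Stat3 and Socs3 higher, Lifr and Il6ra lower), where a call is an edgeR quasi-likelihood adjusted p under 0.05. Over all genes tested, 29.7% were called in SmoM2 (16.2% higher and 13.5% lower), 1.63% in Gnas-eKO (1.46% and 0.165%) and 34.5% in PKI (18.7% and 15.8%). In Gnas-eKO, 5 of the 7 had an unadjusted p under 0.05, beside 19.6% of all genes tested, and without the library BCC 2 the same test called 5 of 7 (Clcf1, Lifr, Osmr and Socs3 higher, Il6ra lower) against 11.8% of all genes tested. The median log2 fold change of the 7 genes reached 0.29 for SmoM2, 0.56 for Gnas-eKO and 0.26 for PKI, beside medians over all tested genes of 0.00054, 0.020 and -0.0012. The Con and BCC libraries did not overlap for 4 of the 7 for SmoM2, 2 for Gnas-eKO and 5 for PKI, beside 38.8%, 19.7% and 43.2% of all tested genes.

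Il6ra, the interleukin-6 binding subunit, was called lower in SmoM2 and PKI tumours. In SmoM2 it was 144, 141 and 157 CPM in Con and 68.3, 89.4, 67.2 and 69.8 CPM in BCC. For PKI the levels were 147, 148 and 132 CPM in Con and 65.9, 83.6, 102 and 75.9 CPM in BCC. Every BCC library lay below every Con library in both models, and Il6ra fell by 0.99 (SE 0.10, adjusted p = 9.7e-05, edgeR) in SmoM2 and by 0.79 (SE 0.13, adjusted p = 0.0022, edgeR) in PKI on the log2 scale. A joint edgeR fit of all 21 libraries ended the PKI call (adjusted p = 0.0905). In Gnas-eKO the Con libraries held 194, 136 and 141 CPM, and the BCC libraries 45.4, 133, 27.9 and 43.2 CPM, with library 2 close to the controls and the other 3 far below them. The Gnas-eKO difference was -1.32 (SE 0.47, adjusted p = 0.178, edgeR), and without that library -2.00 (adjusted p = 0.0022, edgeR). Il6ra overlaps the gene Gm42809 on the opposite strand, and how reads in the overlap were counted is not given in the sources used here.

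Lifr, the leukemia inhibitory factor receptor chain that Cntfr recruits, moved in opposite directions in SmoM2 and PKI. In SmoM2 it was 55.5, 48.2 and 34.5 CPM in Con and 71.0, 70.4, 92.8 and 86.7 CPM in BCC. In PKI it was 52.5, 55.3 and 72.6 CPM in Con and 37.6, 31.4, 48.9 and 44.7 CPM in BCC. The groups did not overlap in either model. Lifr rose by 0.81 (SE 0.17, adjusted p = 0.0083, edgeR) in SmoM2 and fell by 0.55 (SE 0.17, adjusted p = 0.0317, edgeR) in PKI. The PKI call was lost when Con 2, Con 3, BCC 1 or BCC 2 was left out, where the value ranged from -0.61 to -0.39 with an adjusted p up to 0.12, and in the joint edgeR fit of all libraries (adjusted p = 0.0773).

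In Gnas-eKO, Lifr was 46.1, 41.8 and 54.1 CPM in Con and 139.6, 65.4, 155 and 139 CPM in BCC. All 4 BCC libraries were above the Con libraries, and library 2 was again the nearest to them. The difference of 1.41 (SE 0.28) had an edgeR adjusted p of 0.0503, just past the threshold, and without library 2 it was 1.63 (SE 0.13, adjusted p = 0.00059, edgeR).

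Il6st, the shared gp130 chain, passed the test in none of the models. It was 131, 129.7 and 143 CPM in SmoM2 Con and 165, 199, 141 and 145 CPM in SmoM2 BCC. For Gnas-eKO the levels were 162, 144 and 134 CPM in Con and 163, 165, 85.4 and 144 CPM in BCC, and in PKI 203, 169 and 134 CPM in Con and 177, 138, 234 and 167 CPM in BCC. The Con and BCC ranges overlapped in each model. The log2 fold changes were 0.29 (95% interval -0.0094 to 0.59) in SmoM2, -0.061 (-0.63 to 0.51) in Gnas-eKO and 0.098 (-0.39 to 0.59) in PKI, and the Gnas-eKO value was -0.15 without library 2. Only leaving out SmoM2 BCC 3 brought a call, with a log2 fold change of 0.36 and an edgeR adjusted p of 0.0449.

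Osmr, the oncostatin M receptor chain, lies beside Lifr on chromosome 15 with 215.6 kb between the genes, but did not share its pattern of calls. It was 38.6, 35.5 and 26.9 CPM in SmoM2 Con and 38.3, 40.2, 45.1 and 40.2 CPM in SmoM2 BCC. For PKI the levels were 35.8, 35.0 and 32.4 CPM in Con and 51.0, 37.2, 40.9 and 33.9 CPM in BCC. In Gnas-eKO it was 34.5, 28.0 and 34.2 CPM in Con and 60.2, 29.8, 51.6 and 46.6 CPM in BCC, where library 2 lay within the controls and the other 3 above them. None of the log2 fold changes of 0.30 in SmoM2 (adjusted p = 0.0972, edgeR), 0.56 in Gnas-eKO (adjusted p = 0.222, edgeR) and 0.26 in PKI (adjusted p = 0.165, edgeR) was called. Without Gnas-eKO BCC 2 the Gnas-eKO value was 0.72 (adjusted p = 0.0185, edgeR), and without SmoM2 Con 1 the SmoM2 value was 0.40 (adjusted p = 0.0405, edgeR).

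Dividing CPM by exon length allows the receptor subunits to be ranked within a group. In the 3 Con groups Il6ra stood first (17.1 ± 0.93 CPM per kilobase in SmoM2 Con, SD, n = 3) and Il6st second (12.1 ± 0.66), followed by Il11ra1, Lifr and Osmr, and Cntfr was sixth or seventh of 8 at 1.22 ± 0.78 for SmoM2, 0.99 ± 0.20 for Gnas-eKO and 1.33 ± 0.35 for PKI. Il6ra and Il6st overlapped in PKI Con, Il6st and Il11ra1 in Gnas-eKO Con and in PKI Con, and Cntfr and Il31ra in Gnas-eKO Con and in PKI Con. In the BCC groups Cntfr had the highest mean of the 8 subunits, at 58.9 ± 5.29 CPM per kilobase for SmoM2, 40.9 ± 26.5 for Gnas-eKO and 61.3 ± 14.7 for PKI (SD, n = 4). The next subunit was Il11ra1 in SmoM2 (20.9 ± 1.98) and in Gnas-eKO (22.7 ± 7.07), and Il6st in PKI (16.1 ± 3.64). Cntfr did not overlap the next subunit in SmoM2 or PKI BCC, but did in Gnas-eKO BCC, where library 2 had 9.25 CPM per kilobase. This order rests on the lengths, which join all annotated exons of a gene: 2782 bases for Cntfr and 11099 for Il6st. In plain CPM, Cntfr and Il6st had means of 164 and 163 in SmoM2 BCC and 171 and 179 in PKI BCC. In Gnas-eKO BCC these means were 114 and 140. The CPM ranges of Cntfr and Il6st overlapped in each BCC group. The order of Lifr and Il6ra also differed between tumour groups: their ranges overlapped in SmoM2 and in Gnas-eKO BCC, whereas in PKI BCC Il6ra (9.46 ± 1.74) lay above Lifr (3.77 ± 0.72) without overlap.

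**Figure D2:**
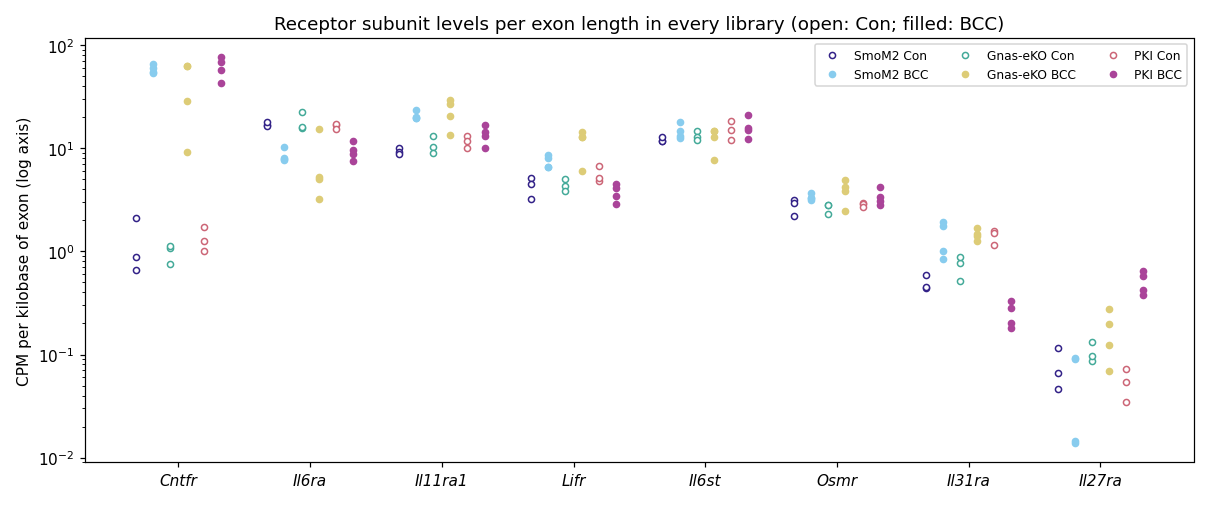
CPM per kilobase of exon (log axis) of 8 receptor subunits in the 21 libraries, with Con libraries as open and BCC libraries as filled circles, 1 colour per group. Cntfr lies between 0.66 and 2.12 in Con and between 9.25 and 76.8 in BCC, while Il6st stays between 7.69 and 21.1 in every library.

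Clcf1, a cytokine that binds Cntfr, was expressed at a low level and called in PKI alone. In PKI it was 5.52, 5.87 and 7.15 CPM in Con and 10.9, 8.72, 10.5 and 8.01 CPM in BCC, without overlap, a rise of 0.64 (SE 0.17, adjusted p = 0.0183, edgeR) that was lost when Con 1 or Con 2 was left out (adjusted p up to 0.0661) and in the joint edgeR fit (adjusted p = 0.0962). For Gnas-eKO the levels were 7.35, 6.09 and 7.00 CPM in Con and 9.92, 6.65, 18.4 and 13.9 CPM in BCC, with library 2 inside the control range. The Gnas-eKO difference was 0.85 (adjusted p = 0.201, edgeR), and 1.05 (adjusted p = 0.0316, edgeR) without that library. In SmoM2 it was 7.99, 8.37 and 7.14 CPM in Con and 4.48, 5.79, 9.68 and 5.59 CPM in BCC, where 3 of the 4 tumour libraries were below the controls and library 3 above them. The SmoM2 difference was -0.28 (adjusted p = 0.434, edgeR), and -0.55 (adjusted p = 0.0465, edgeR) without BCC 3. Clcf1 shares bases with 2 other annotated genes, so its counts are uncertain where reads could be split. Cntf, the other ligand of Cntfr, stayed between 0.391 and 1.85 CPM in every library, and it shares bases with Zfp91 on the same strand.

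Lif, the ligand of the Lifr and gp130 pair, rose from 2.76, 3.10 and 1.68 CPM in SmoM2 Con to 12.3, 9.41, 12.0 and 5.64 CPM in SmoM2 BCC (log2 fold change 1.98, SE 0.32, adjusted p = 0.0015, edgeR). It also rose from 3.09, 1.89 and 2.40 CPM in PKI Con to 12.0, 6.50, 6.36 and 5.87 CPM in PKI BCC (1.65, SE 0.31, adjusted p = 0.0036, edgeR). No tumour library of these models overlapped its controls. In Gnas-eKO the Lif difference was 1.01 (SE 0.48, adjusted p = 0.292, edgeR), with BCC libraries from 2.84 to 12.6 CPM around Con libraries from 3.46 to 4.75 CPM. Ctf1, the ligand cardiotrophin-1, fell in PKI by 0.64 (SE 0.19, adjusted p = 0.0263, edgeR), a call lost without Con 1, Con 3 or BCC 2 (adjusted p up to 0.107).

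Stat3, the transcription factor downstream of gp130, was called in PKI. There it was 234, 273 and 221 CPM in Con and 409, 361, 361 and 353 CPM in BCC, with every tumour library above the controls and a rise of 0.62 (SE 0.094, adjusted p = 0.00135, edgeR). In SmoM2 it was 273, 247 and 289 CPM in Con and 293, 291, 347 and 295 CPM in BCC, which do not overlap but lie close together, and the difference of 0.20 (SE 0.086, adjusted p = 0.11, edgeR) was not called. For Gnas-eKO the levels were 274, 255 and 225 CPM in Con and 347, 269, 242 and 308 CPM in BCC, with overlapping groups and a difference of 0.22 (SE 0.16, adjusted p = 0.482, edgeR), or 0.26 without library 2. These are transcript levels, and the phosphorylated form of the protein, which carries its activity, was not measured here. Stat3 and Stat5a overlap on opposite strands.

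Socs3, the feedback inhibitor whose upstream stretch with the STAT letters is printed above, was called higher in SmoM2 and PKI tumours. In SmoM2 it was 19.1, 12.8 and 16.9 CPM in Con and 27.3, 20.9, 42.3 and 40.1 CPM in BCC. In PKI it was 15.8, 12.9 and 14.5 CPM in Con and 58.4, 46.4, 37.9 and 29.2 CPM in BCC. The groups did not overlap in these 2 models, with the narrower gap in SmoM2. Socs3 rose by 1.02 (SE 0.27, adjusted p = 0.026, edgeR) in SmoM2 and by 1.59 (SE 0.23, adjusted p = 0.0015, edgeR) in PKI, but the SmoM2 call was lost when Con 1, Con 2, Con 3 or BCC 4 was left out (adjusted p up to 0.0885). In Gnas-eKO it was 18.4, 17.2 and 22.7 CPM in Con and 70.5, 22.1, 76.9 and 56.8 CPM in BCC, where library 2 lay within the controls and the other 3 far above. The Gnas-eKO difference was 1.55 (SE 0.38, adjusted p = 0.081, edgeR), and 1.82 (SE 0.17, adjusted p = 0.00086, edgeR) without library 2.

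The pathway was then described with 43 genes other than Cntfr in 5 lists (ligands, receptors, kinases with STATs and adaptors, inhibitors, and genes induced by STAT3), which include the 7 members other than Cntfr. The table held 39 of them. In SmoM2, 14 of 35 tested were called (9 higher, 5 lower), in Gnas-eKO 0 of 35, and in PKI 24 of 38 (16 higher, 8 lower), beside the 29.7%, 1.63% and 34.5% of all genes. The median log2 fold change over the lists was -0.030, 0.22 and 0.26. In Gnas-eKO, 14 of the 35 had an unadjusted p under 0.05, beside 19.6% of all genes, DESeq2 called 9, beside 9.37%, and edgeR without BCC 2 called 13 (9 higher, 4 lower), beside 11.8%. In PKI, 4 of the 38 (Cntf, Ebi3, Il27ra and Timp1) passed the filter on low counts only through the tumour libraries, and without them 21 of 34 were called (13 higher, 8 lower). The PKI count was 13 without PKI Con 2.

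Among the other receptor genes, Il11ra1, the interleukin-11 receptor alpha chain, rose from 44.9, 41.6 and 39.6 CPM to 90.9, 107, 88.5 and 87.8 CPM in SmoM2 (log2 fold change 1.17, SE 0.089, adjusted p = 1.4e-05, edgeR). For PKI the levels were 58.3, 44.7 and 52.2 CPM in Con and 76.2, 64.4, 59.1 and 45.0 CPM in BCC, with overlap and a difference of 0.25 (adjusted p = 0.28, edgeR). In Gnas-eKO the difference was 1.07 (adjusted p = 0.0848, edgeR), and all BCC libraries (61.0 to 131 CPM) were above the Con libraries (40.5 to 59.4 CPM). Il11ra1 has a near copy, Il11ra2, at 0 to 10.2 CPM, and its annotated span holds parts of 6 other genes, so its counts are uncertain.

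Il31ra, the interleukin-31 receptor subunit that pairs with Osmr, changed in opposite directions in SmoM2 and PKI. It rose from 2.48, 2.58 and 3.35 CPM to 11.0, 9.99, 5.69 and 4.79 CPM in SmoM2 (log2 fold change 1.51, SE 0.32, adjusted p = 0.0069, edgeR). In PKI it fell from 8.87, 8.65 and 6.61 CPM to 1.59, 1.03, 1.87 and 1.15 CPM (-2.49, SE 0.25, adjusted p = 0.00022, edgeR). For Gnas-eKO the levels were 2.94, 4.36 and 4.96 CPM in Con and 8.08, 7.13, 8.29 and 9.67 CPM in BCC (1.03, SE 0.24, adjusted p = 0.0687, edgeR), and here library 2 was the lowest BCC library but above every Con library. The PKI controls lay within the range of the SmoM2 tumours, 2 of the 3 also within that of the Gnas-eKO tumours, and the PKI tumours below the range of every other group. Il31ra shares bases with Gm3226 on the same strand.

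Of the kinases and STATs, Jak1 and Stat5b fell in SmoM2 and in PKI, and Jak2 rose in both. The log2 fold changes of Stat5b were -0.58 (SE 0.091) in SmoM2 and -0.80 (SE 0.070) in PKI. Those of Jak1, the kinase that associates with gp130, were -0.74 and -0.28, and those of Jak2 were 0.45 and 0.32. In Gnas-eKO none of these was called, with values of -0.73 for Stat5b, -0.62 for Jak1 and 0.42 for Jak2. Without Gnas-eKO BCC 2, Stat5b (-0.93, adjusted p = 0.0089, edgeR) and Jak1 (-0.85, adjusted p = 0.0278, edgeR) were called. Jak2 was not (0.44, adjusted p = 0.256, edgeR). The PKI calls of both kinases were lost in the joint edgeR fit (adjusted p = 0.219 for Jak1 and 0.0990 for Jak2), that of Jak1 also without PKI Con 1 or Con 2 and that of Jak2 without PKI Con 2 (edgeR adjusted p up to 0.0531 and 0.0609). Of the inhibitors beside Socs3, Pias3, which binds Stat3 and blocks its DNA binding, fell by 0.32 in SmoM2 and by 0.78 in PKI, and Socs1 and Ptpn2 rose in PKI by 0.87 and 0.41. The SmoM2 call of Pias3 was lost in 5 of 7 fits without 1 library, that is without any but Con 1 or BCC 4 (edgeR adjusted p up to 0.0892).

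Of the 12 STAT3-induced genes, 3 rose and 1 fell among 11 tested in SmoM2, 0 of 11 were called in Gnas-eKO, and 7 rose and 1 fell among 12 tested in PKI. These are 36.4%, 0% and 66.7% of those tested, beside 29.7%, 1.63% and 34.5% of all genes. Without Gnas-eKO BCC 2, edgeR called 4 of the 11 in that model (Bcl3, Cebpd and Vegfa higher by 1.70, 1.02 and 1.13, Myc lower by 0.75), beside 11.8% of all genes tested. Bcl3, a nuclear partner of NF-kappaB, rose from 3.77, 4.76 and 2.27 CPM to 8.50, 6.23, 11.6 and 10.1 CPM in SmoM2, and from 1.67, 2.78 and 2.22 CPM to 34.9, 28.3, 26.7 and 18.8 CPM in PKI. The log2 fold changes were 1.35 (SE 0.28, adjusted p = 0.0061, edgeR) and 3.63 (SE 0.26, adjusted p = 7.1e-05, edgeR). With all Gnas-eKO libraries Bcl3 differed by 1.40 (SE 0.49, adjusted p = 0.171, edgeR). Cebpd, a transcription factor, rose by 1.03 in SmoM2 and 1.11 in PKI, and Vegfa, the vascular growth factor, by 1.17 and 0.79. Junb, Il4ra and Birc5 rose in PKI by 1.16, 1.71 and 0.79. Timp1, also in the PKI count, was 0.0631 to 0.240 CPM in PKI Con and 0.384 to 3.90 CPM in PKI BCC and passed the filter only through the tumour libraries. Without it the PKI count is 6 rising and 1 falling among 11. The PKI call of Cebpd was lost without Con 2 or Con 3 (edgeR adjusted p up to 0.0598). Myc fell in SmoM2 by 0.32 and Pim1 in PKI by 0.29. These genes answer to other pathways as well, so their counts are not a measure of Stat3 activity.

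**Figure D3:**
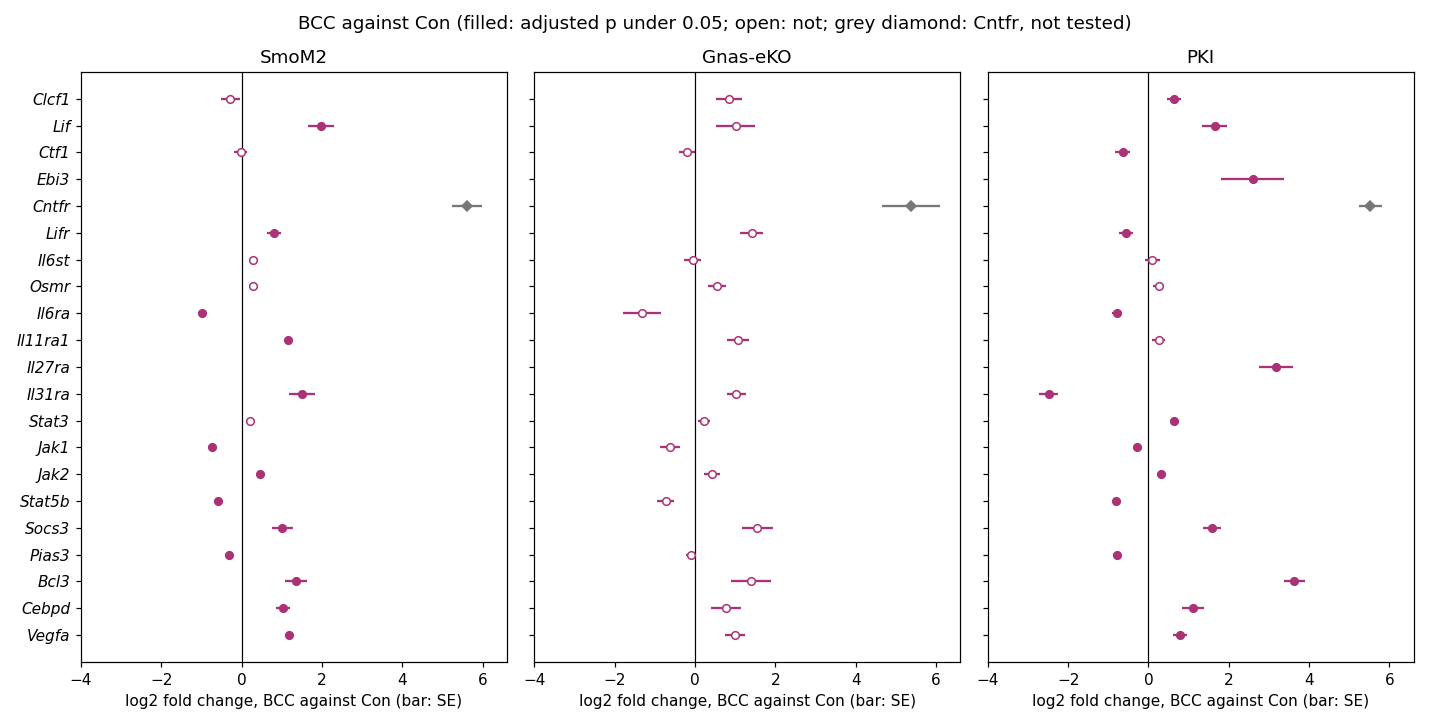
Log2 fold change of BCC against Con (x axis, bar: SE) of the members and of the 13 other pathway genes named by the rule (called in at least 2 models or, for ligands and receptors, in at least 1), in 3 panels for SmoM2, Gnas-eKO and PKI. Filled circles passed the edgeR adjusted p threshold of 0.05 and open circles did not, and Ebi3 and Il27ra passed the filter on low counts only through the PKI tumour libraries. Cntfr (grey diamonds, not tested since it was chosen for its rise) lies at 5.62, 5.37 and 5.53.

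In PKI tumours the rise of Bcl3, Socs3 and Stat3 went along with higher leukocyte markers, as did higher values of the receptor Il27ra (fitted log2 fold change 3.18) and of Ebi3, a subunit of interleukin-27 (2.59). Both of these passed the filter only through the PKI tumour libraries, so their values are a description. Il27ra was 0.253, 0.189 and 0.12 CPM in Con and 2.26, 2.01, 1.47 and 1.32 CPM in BCC, so all its levels were low. Ebi3 was lower still, at 0.101, 0.0631 and 0.180 CPM in Con and 0.975, 0.929, 0.134 and 0.878 CPM in BCC, with BCC library 3 inside the control range. On a log2 scale with a pseudocount of 1 the Ebi3 value was 0.60 (limma). The summed level of 6 of 6 leukocyte markers was 67.5 to 90.2 CPM in PKI BCC and 22.6 to 33.6 CPM in PKI Con, and none was at 0 in any library. Of the 6, 5 were called higher in PKI, beside 18.7% of all genes tested. The pan-leukocyte gene Ptprc was 11.0 to 20.0 CPM in PKI BCC and 1.92 to 4.36 CPM in PKI Con. In SmoM2 the leukocyte sum was 17.5 to 27.0 CPM in BCC and 26.5 to 34.2 CPM in Con, and in Gnas-eKO 20.9 to 46.5 CPM and 32.9 to 36.9 CPM. The part of these cells in the PKI changes was not tested.

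Of the fibroblast markers, 3 of 6 tested were called higher in SmoM2, 1 of 6 in Gnas-eKO and 2 of 5 in PKI. Over all genes tested, 16.2%, 1.46% and 18.7% were called higher. The summed level of 6 of 6 was 386 to 524 CPM in SmoM2 BCC, 81.9 to 576 CPM in Gnas-eKO BCC and 78.8 to 133 CPM in PKI BCC, against 14.9 to 40.0 CPM over the Con libraries. Most of it was Dcn, which reached 362 to 500.0 CPM in SmoM2 BCC, whereas Pdgfra, which defines fibroblasts, was at most 1.20 CPM in any library and Col1a1 at most 28.9 CPM. The part of fibroblasts in the levels of Lifr, Il11ra1, Osmr and Il6st, which they also express, was not tested.

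Of the hair follicle markers, SmoM2 had 3 of 5 called higher, Gnas-eKO 1 of 5, and PKI 3 of 5 with 1 lower. Over all genes tested, 16.2%, 1.46% and 18.7% were called higher, and 15.8% lower in PKI. Lhx2, a transcription factor of follicle stem cells, was 217 to 251 CPM in SmoM2 BCC, 80.8 to 371 CPM in Gnas-eKO BCC and 102 to 147 CPM in PKI BCC, against 34.5 to 49.0 CPM over the Con libraries. Lgr5, another follicle stem cell gene, was 93.1 to 120 CPM in SmoM2 BCC and 11.6 to 18.2 CPM in SmoM2 Con, but 18.1 to 28.3 CPM in PKI BCC and 14.8 to 19.9 CPM in PKI Con. Krt15, another of the 5, went the other way in SmoM2, with 1427 to 1551 CPM in BCC and 1597 to 1844 CPM in Con. It was also lower in PKI, with 981 to 1154 CPM in BCC and 1862 to 2270 CPM in Con. In Gnas-eKO, Krt15 was 1841 to 2331 CPM in BCC and 1404 to 1902 CPM in Con. The summed level of the 5 markers, none of them at 0 in any library, was 2992.8 to 5738 CPM in BCC and 2799.5 to 3848 CPM in Con. These ranges overlap, and most of the sum was Krt15 and Krt79. Melanocyte markers were called lower for 2 of 4 in SmoM2 and 3 of 4 in PKI, with sums of 56.1 to 86.6 CPM in PKI BCC and 113 to 147 CPM in PKI Con. Over all genes, 13.5% and 15.8% were called lower. Of the Schwann cell markers, 1 was called higher and 2 lower among 5 in SmoM2, and 1 lower among 4 in PKI. Merkel cell markers were called lower for 1 of 3 in SmoM2 and 1 of 2 in PKI. Called higher were 1 of 2 endothelial markers in SmoM2 and the 1 neutrophil marker tested in PKI. The part of these cells in the levels of the members was not tested.

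The BCC effects were then compared between models with an interaction term, for the 7 members and the rest of the lists. Since each model has its own controls, a difference between effects does not rest on shared libraries, but it includes the difference between batches and days. PKI differed from SmoM2 for 3 of 7 members and 14 of 38 pathway genes, beside 24.9% of all genes tested. PKI differed from Gnas-eKO for 1 of 7 members and 7 of 38, beside 9.06%, and Gnas-eKO from SmoM2 for 0 of 7 and 0 of 35, beside 0.175%. Among the 38, Ebi3, Il27ra and Timp1 passed the filter on low counts only through the PKI tumour libraries, and without them the counts were 12 and 6 of 35. The PKI against Gnas-eKO pathway count was 4 when Gnas-eKO Con 1, Con 3 or BCC 4 or PKI Con 2, Con 3, BCC 1 or BCC 2 was left out. Between Gnas-eKO and SmoM2, Clcf1 was the only member with an unadjusted p under 0.05.

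Lifr was called different in both comparisons with PKI. Its log2 fold change in PKI was lower by 1.37 (SE 0.26, adjusted p = 0.0024, edgeR) than in SmoM2 and lower by 1.96 (SE 0.35, adjusted p = 0.0055, edgeR) than in Gnas-eKO, and both calls held without any single library, with adjusted p up to 0.0074 and 0.0228. The Lifr effects in Gnas-eKO and SmoM2 differed by 0.60 (SE 0.35, adjusted p = 0.652, edgeR). The PKI effect was higher than the SmoM2 effect by 0.42 for Stat3 (SE 0.13, adjusted p = 0.0261, edgeR) and by 0.92 for Clcf1 (SE 0.31, adjusted p = 0.0428, edgeR), and neither gene was called within SmoM2. The Stat3 call was lost when SmoM2 Con 3, BCC 1 or BCC 2 or PKI Con 1 or Con 3 was left out (values 0.36 to 0.40, adjusted p up to 0.0741), and the Clcf1 call when any of 11 of the 14 libraries was left out, that is any but SmoM2 BCC 3, PKI Con 3 or PKI BCC 4 (values 0.78 to 0.98, adjusted p up to 0.0953). Both calls were also lost in the joint edgeR fit (adjusted p = 0.0857 for Stat3 and 0.111 for Clcf1). The effects on Il6ra, Il6st, Osmr and Socs3 were not called different in any pair with all libraries. Without Gnas-eKO BCC 2 the Il6ra difference between PKI and Gnas-eKO moved from 0.53 to 1.22 and was called (adjusted p = 0.0120, edgeR), and that between Gnas-eKO and SmoM2 was -1.01 (adjusted p = 0.109, edgeR). For Socs3 the difference between PKI and Gnas-eKO was 0.040 (SE 0.47), an error too wide to show that they act alike. Outside the members, the Il31ra effects differed by -3.99 (SE 0.42, adjusted p = 3.1e-05, edgeR) between PKI and SmoM2 and by -3.52 (SE 0.34, adjusted p = 0.00025, edgeR) between PKI and Gnas-eKO.

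The genes most like Cntfr were ranked by Pearson correlation of log2 CPM among 12029 genes, as a description without a test. Over all 21 libraries, which differ above all between Con and BCC, the first were Nrp2 (r = 0.987), Cilp (0.982), 6430571L13Rik (0.980), Marcksl1 (0.977) and Arhgef17 (0.976). Nrp2, a co-receptor of semaphorins and vascular growth factors, had 35.3 ± 13.3, 33.8 ± 4.70 and 35.9 ± 12.1 CPM in SmoM2, Gnas-eKO and PKI Con (SD, n = 3) and 241 ± 13.0, 255 ± 150.5 and 277 ± 29.9 CPM in the BCC groups (SD, n = 4). Over the 12 BCC libraries centred within models, the first were Edn1 (r = 0.970), Rhobtb3 (0.948), Nrtn (0.945), Hk2 (0.943) and Irx2 (0.940). That order rested on Gnas-eKO BCC 2: without it the values over 11 libraries were 0.879, 0.774, 0.739, 0.850 and 0.714. Among the pathway genes over the 12 libraries, the first were Il11ra1 with r = 0.868 and rank 72, Cebpd with 0.804 and rank 191, and Osmr with 0.746 and rank 318, and Il6ra had -0.717. Without Gnas-eKO BCC 2 these values were 0.669, 0.428, 0.173 and 0.301.

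Cntfr lies on chromosome 4 (GRCm38, chr4:41657498-41697089, minus strand), 2.9 kb from Il11ra1 (chr4:41699989-41769474, plus strand), so that the genes of these alpha subunits point away from each other. A window of 200 kb on either side was chosen after these values were known. Described here are 14 other genes of the table in it, of which 9 were tested. In SmoM2, 4 were called higher (Enho, Il11ra1, Rpp25l and Galt), in Gnas-eKO 0, and in PKI 4 higher (Kif24, Enho, Galt and Ccl27a), beside the 29.7%, 1.63% and 34.5% of all genes given above. Enho passed the filter in SmoM2 only through the tumour libraries, and without it 3 of 8 were called there. It lies 17.2 kb away and encodes the peptide adropin. In SmoM2, as a description, it was 0.184, 0.688 and 0.379 CPM in Con and 2.76, 1.69, 2.92 and 2.62 CPM in BCC. In PKI it rose by 2.37 (SE 0.30, adjusted p = 0.00061, edgeR), from 0.709, 0.568 and 0.541 CPM in Con to 2.72, 4.08, 2.58 and 3.18 CPM in BCC. All its levels were low, and the Con libraries of PKI held 9 to 14 counts. The next gene on that side, Dnaic1, stayed at means of 0.188 to 0.410 CPM. The Il11ra1 effect was lower in PKI than in SmoM2 by 0.91 (SE 0.20, adjusted p = 0.0052, edgeR). Cntfr was chosen for its rise, so its fold change is not ranked against those of its neighbours.

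**Figure D4:**
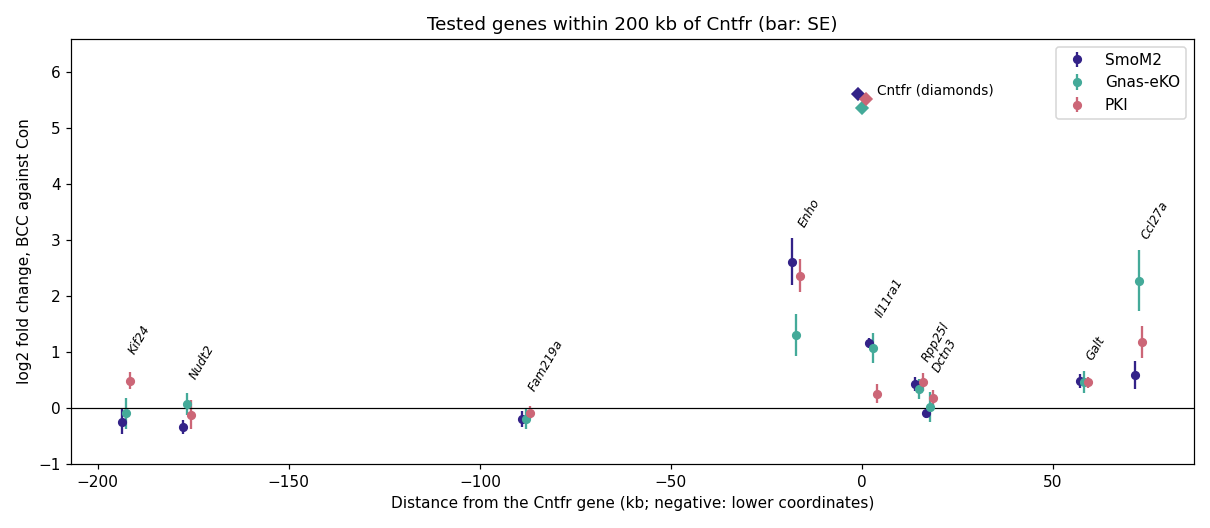
Log2 fold change of BCC against Con (y axis, bar: SE) of 9 tested genes within 200 kb of Cntfr against their distance from it in kb (x axis), with Cntfr itself as diamonds and the 3 models drawn slightly side by side. Cntfr, which was chosen for its rise, lies above 5 in each model. Of the neighbours drawn, Enho is the highest in SmoM2 at 2.62 (a description, since it passed the filter there only through the tumours) and in PKI at 2.37. Il11ra1 lies at 1.17 for SmoM2, 1.07 for Gnas-eKO and 0.25 for PKI.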

How the data were processed

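Estimated counts per gene were deposited by the authors beside their normalized signal values, which equal the count times a factor per library plus 0.001. Per the submitters' processing notes, the tools include bcl2fastq 2.20, cutadapt 1.18, STAR 2.7.0f and Partek, and the build is mm10. The counting and strand settings are not given in the sources used here. Of the deposited counts, 33.1% were not whole, and they were rounded. CPM values use TMM factors over the 21 libraries, and exon lengths come from a GRCm38 annotation. Each model was fitted with edgeR 4.0.16 in R 4.3.3 (filterByExpr, TMM, robust quasi-likelihood F test of BCC against Con on its 7 libraries), with Benjamini-Hochberg adjustment over all tested genes and a threshold of 0.05. SEs were derived from the fold change and its F statistic, and differences between models are interaction contrasts over 14 libraries. The code was tested on simulated data. No replicate pair agreed within sampling noise: the lowest chi-square per degree of freedom was 8.93.

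The members and lists were chosen with earlier results of these data known. Named genes are the members and those list genes called in at least 2 models or, for ligands and receptors, in at least 1; a few others are named after their values were seen, to say which genes a count holds. Il6, Ctf2, Il27 and Il31 are not analysed here, and a few other genes of the lists and of the window around Cntfr are not reported here. Likeness used genes with a mean log2 CPM over 2 and a prior count of 2. Alternatives were other scaling, no filter, DESeq2 1.42.0, limma 3.58.1 on the signal values (pseudocount 1 or 0.1), a joint fit of all libraries, the replicate number as a block, and leaving out each library. Library totals of 16645900 to 22251100 set the precision, and PCR duplicates were not identified.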

Additional observations from a re-analysis of the deposited data

Results flagged for a closer look

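Among 63 checks of BCC groups of 4 libraries for the 21 named genes, 8 values lay far from the other 3 of their group by Dixon's criterion, where chance gives about 1 in 20. Il6ra was 89.4 CPM in SmoM2 BCC 2 against 67.2 to 69.8 CPM in the others, and 133 CPM in Gnas-eKO BCC 2 against 27.9 to 45.4 CPM. Il11ra1 was 107 CPM in SmoM2 BCC 2 against 87.8 to 90.9 CPM. Stat3 was 347 CPM in SmoM2 BCC 3 against 291 to 295 CPM, and Cebpd was 20.7 CPM in the same library against 13.2 to 14.5 CPM. In PKI BCC 1, Stat3 was 409 CPM against 353 to 361 CPM and Lif was 12.0 CPM against 5.87 to 6.50 CPM. Ebi3 was 0.134 CPM in PKI BCC 3 against 0.878 to 0.975 CPM.

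The BCC effects of 8 named genes differed between PKI and SmoM2 by an edgeR interaction test. The PKI effect was lower for Il31ra (-3.99 on the log2 scale), Lifr (-1.37), Il11ra1 (-0.91) and Pias3 (-0.46). It was higher for Bcl3 (2.28), Clcf1 (0.92), Jak1 (0.46, a smaller fall) and Stat3 (0.42). Between PKI and Gnas-eKO the test called Il31ra (-3.52), Lifr (-1.96), Pias3 (-0.67) and Bcl3 (2.24). Without 1 library at a time, the Bcl3 call between PKI and Gnas-eKO was lost in 10 of 14 fits. The PKI against SmoM2 calls were lost in 11 of 14 fits for Clcf1, 5 for Stat3, 4 for Pias3 and 2 for Jak1. Those of Clcf1, Stat3 and Jak1 were also lost in the joint fit. Il27ra reached at most 2.26 CPM in any library and passed the filter on low counts only through the PKI tumour libraries, so its fitted differences of 3.63 from SmoM2 and 2.51 from Gnas-eKO are a description.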

How the results depend on the processing

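Over the alternative settings, 1230 of the values for single genes kept their direction and, where tested, their side of the threshold. Another 85 lost and 39 gained a call, and 23 changed sign. Cntfr has no test, so its values count among the 1230 where they moved by less than the SD of its BCC libraries (log2 CPM). The remaining 4 values, all of Cntfr in SmoM2, moved further. In Gnas-eKO, 267 genes were called, against 1535 by the DESeq2 Wald test, 2644 in the joint fit of all libraries and 135 with the replicate block. The Gnas-eKO pathway count of 0 became 1 with no filter, 9 by DESeq2 and 12 in the joint fit. Genes differing between Gnas-eKO and SmoM2 numbered 30, and 66 in the joint fit. Those differing between PKI and Gnas-eKO numbered 1564, and 925 with the replicate block. Leaving out 1 library at a time gave 0 to 1910 genes in Gnas-eKO, 14 to 79 for Gnas-eKO against SmoM2 and 673 to 2512 for PKI against Gnas-eKO. The pathway counts then ran from 0 to 13 in Gnas-eKO (13 without BCC 2), 13 to 23 in PKI (13 without PKI Con 2) and 4 to 9 for PKI against Gnas-eKO. The cause was not tested.

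Changes of sign concerned uncalled values. With the replicate block the difference between Gnas-eKO and SmoM2 for Stat3 was -0.026, that between PKI and SmoM2 for Osmr 0.012 and that between PKI and Gnas-eKO for Clcf1 0.053. Without single libraries these ranged from -0.069 to 0.11, -0.16 to 0.10 and -0.41 to 0.052. Likewise the PKI against Gnas-eKO difference ranged from -0.23 to 0.22 for Socs3 and from -0.018 to 0.31 for Il6st. The BCC effect ranged from -0.13 to 0.077 for Ctf1 in SmoM2, from -0.15 to 0.12 for Il6st in Gnas-eKO and from -0.054 to 0.25 for Il6st in PKI.

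Same-numbered Con and BCC libraries share only a number: their deviations correlated between -0.127 and 0.282, and not all over 0.1 in any model. With the number as a block, edgeR no longer called Lifr, Bcl3 and Pias3 in SmoM2 (adjusted p = 0.0825, 0.0767 and 0.0651) and the PKI against SmoM2 differences of Clcf1, Jak1 and Pias3 (0.0629, 0.130 and 0.0854). It did call Osmr and Il11ra1 in PKI (0.33 and 0.38, adjusted p = 0.0459 and 0.0183) and the PKI against SmoM2 difference of Socs3 (0.86, adjusted p = 0.0296). In Gnas-eKO, DESeq2 called Lifr, Il6ra and Socs3 of the members, and the joint fit these with Osmr and Clcf1. The joint fit did not call the PKI against SmoM2 difference of Jak1 (adjusted p = 0.220). With no filter, edgeR gave Socs3 in SmoM2 an adjusted p of 0.052 and Lifr in Gnas-eKO one of 0.0450. Leaving out 1 library at a time ended the calls of Pias3 in SmoM2 in 5 of 7 fits, and in PKI those of Ctf1 in 3 of 7, Jak1 and Cebpd in 2 of 7 and Jak2 in 1 of 7. It ended the PKI against SmoM2 differences of Pias3 in 4 of 14 and Jak1 in 2 of 14, and the PKI against Gnas-eKO difference of Bcl3 in 10 of 14. Depth limits genes near 0.189 CPM, the level of 3 counts.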

Other observations

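Osm, the ligand of the Osmr and gp130 pair, was too low to be tested. It was 0.155 to 1.08 CPM in PKI BCC, at most 0.12 CPM in PKI Con and at most 0.0535 CPM in the other groups, which is under the level of 3 counts. Il11, the ligand of Il11ra1, stayed between 0.402 and 1.37 CPM in every library.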
